A study of Mus musculus with 4 samples.

Results

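CD8 T cells of 2 origins were compared within B16-F10 tumours of the control arm of an adoptive transfer experiment. B16-F10 is a transplantable mouse melanoma line, and C57BL/6 is the labelled strain of every sample. Pmel-1 cells, CD8 T cells from mice transgenic for a receptor that recognises gp100, a protein of pigment cells and melanoma, were given to tumour-bearing mice on day 3 after implantation, and tumour-infiltrating cells were sorted on day 14. In the control arm the Pmel-1 cells had been transduced with GFP alone, and those recovered from the tumours formed the transferred library (Ctrl_Pmel). The endogenous library (Ctrl_TILs) held CD45+ cells of the hosts in that arm, labelled as CD45+ cells and not as CD8 cells. Each origin had 1 library, so no test between them was possible and every difference below is a difference between 2 libraries. In the other arm the Pmel-1 cells carried IRF4 and GFP (IRF4_Pmel and IRF4_TILs, 1 library each), and its values are used only side by side. The sources used here do not give the ages or number of the mice or whether tumours were pooled. Origin, time outside the host, transduction, receptor, sorting gate and library all differ together between the transferred and endogenous cells, and their effects cannot be told apart.

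CD8 cells were taken from both libraries by 1 gate on RNA. A barcode needed at least 1000 UMIs (unique molecular identifiers, each standing for 1 captured RNA molecule), 500 genes or more and a mitochondrial share of no more than 10%. It also needed at least 2 UMIs of Cd8a and Cd8b1 together, at least 1 UMI of the CD3 genes Cd3d, Cd3e and Cd3g, no UMI of Cd4 or of the B cell gene Cd79a, and fewer than 10 UMIs of the macrophage gene Lyz2 per 10000. The gate held 2816 cells, 2094 transferred and 722 endogenous, out of 10015 barcodes in the 2 control libraries and 17711 in the series. It took 83.3% of the transferred barcodes that passed the quality limits and 12.7% of the endogenous ones. Cd8a, Cd8b1 and Cd3e are genes of the gate itself, so their presence on both sides is no separate check of the cell type. Their levels are given as description. Cd8a was at 589 UMIs per 1000000 (CPM) in transferred and 638 CPM in endogenous cells, Cd3e at 442 and 429 CPM, and Cd8b1 at 467 and 743 CPM. The limit of 2 CD8 UMIs lay in a thin part of the range, since the median cell held 23 transferred and 17 endogenous CD8 UMIs. Exactly at that limit were 38 transferred cells (median 5715 UMIs) and 26 endogenous cells (median 6472 UMIs), and 31 and 56 barcodes with 1 CD8 UMI (median 6372 and 6218.5 UMIs) passed every other condition and were left out.

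CD8 T cells recognise peptides on class I molecules through a receptor whose alpha and beta chains are assembled from V, D and J segments, so that a normal population uses many V segments and a receptor-transgenic one uses few. After activation, effector cells make granzymes and perforin, which kill the target, and cytokines such as interferon-gamma. Under lasting antigen in a tumour, CD8 cells become exhausted: a pool that keeps the transcription factor TCF1 (Tcf7) and can renew itself feeds cells with inhibitory receptors such as TIM-3 (Havcr2), and IRF4 is 1 of the transcription factors that receptor signals induce in these cells.

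The transferred cells held more UMIs and genes per cell, which is called depth here. Their median was 19690.5 UMIs and 3893 genes, against 9213.5 UMIs and 2631.5 genes in the endogenous cells, with 67123423 and 11254061 gated UMIs in all. The median mitochondrial share of gated cells was 4.06% and 4.10%, but 27.2% of all transferred and 9.24% of all endogenous barcodes had exceeded the 10% limit. The 2 control libraries shared 5 barcodes, none of them gated in both. Because depth differed, shares of cells with a UMI of a gene are given after each cell was thinned to 2000 UMIs, and each is followed by the share at full depth. RNA from other cells that is captured with a T cell was read from barcodes of the endogenous library that should lack T cell transcripts: 265 B cell barcodes (median 3577 UMIs) and 1487 myeloid barcodes (median 14429 UMIs, 1472 of them deep enough for thinning). They describe the endogenous library only and do not measure captured RNA in the transferred library. Both sets were chosen to have no CD3 UMI, which leaves out barcodes that captured CD3 RNA. Their shares of T cell transcripts can therefore be too low.

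The receptor set the transferred cells apart. The beta chain segment Trbv14 made up 97.5% of the Trbv UMIs of transferred cells (15358 of 15746, exact 95% interval 97.3 to 97.8%), the second segment, Trbv13-1, only 1.87%. Endogenous cells spread 357 Trbv UMIs over 21 segments, led by Trbv19 (14.6%), Trbv17 (12.3%) and Trbv16 (11.8%), and 5 segments were needed to hold 50% of them. Trbv14 lies at chr6:41135145-41135616 on the plus strand of mm10, and its second exon, which encodes the variable domain, is printed here because its transcript is the direct mark of origin in these libraries. The sequence is the GENCODE vM21 annotation of mm10, chr6:41135320-41135616, plus strand, and the capitals mark the last in-frame TGT cysteine codon, near the end at which the segment joins D and J.
Trbv14 exon 2: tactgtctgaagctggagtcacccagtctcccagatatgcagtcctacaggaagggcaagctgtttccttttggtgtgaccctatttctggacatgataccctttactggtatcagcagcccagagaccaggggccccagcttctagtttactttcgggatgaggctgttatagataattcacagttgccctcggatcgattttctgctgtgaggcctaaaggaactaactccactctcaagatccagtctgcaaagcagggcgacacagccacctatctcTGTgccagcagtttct

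Trbv14 was detected in 89.4% of transferred cells at full depth (229 CPM) and in 0.554% of endogenous cells (4 cells, 0.355 CPM). After thinning to 2000 UMIs these shares were 38.4% and 0.139%. The B cell and myeloid barcodes come from the endogenous library and give no background for a transcript of the transferred cells. Of the 1893 transferred cells with any Trbv UMI, 1589 (83.9%) had Trbv14 as their only segment. The alpha chain showed no such leader in either library, since Trav12-2, the first in transferred cells, held 8.2% of 1193 Trav UMIs. The beta constant gene Trbc2 was 5.83-fold higher in transferred cells (8979 and 1539.8 CPM, 95% counting interval 5.74 to 5.92), the delta constant gene Trdc 4.63-fold (53.1 and 11.5 CPM, 3.89 to 5.57), and the gamma constant gene Tcrg-C2 was 26.8-fold lower (1.49 and 39.9 CPM). Trbc2 has a near-identical copy, Trbc1, and the sources used here do not say how reads were split between them.

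Donor sex marks showed a second difference between the origins, and 1 within the transferred library. Xist, the RNA that coats the inactive X chromosome of female cells, was at 372 CPM in 43.3% of transferred cells and in none of 722 endogenous cells, which allows a share of up to 0.416%. Against the floor of 3 counts over the group, Xist was at least 1394-fold higher in transferred cells. Endogenous cells with a mark were male: 598 (82.8%) had a UMI of the Y-linked genes Ddx3y, Eif2s3y, Kdm5d or Uty, and 124 had neither mark. Transferred cells fell into 442 with Xist alone (21.1%), 1033 with Y genes alone (49.3%), 465 with both (22.2%) and 154 with neither (7.35%). The labels do not give the sex of donors or hosts.

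Barcodes with both marks stood apart from the rest of the transferred library. Their median was 55768 UMIs and they held 49.5% of the library's gated UMIs. Their share was larger in deeper ranges, from 2.5% of cells under 10000 UMIs through 9.09% and 19.7% to 59.7% at 40000 UMIs or more. They held 4.32 Xist and 1.13 Y-gene UMIs per 10000, against 11.8 Xist in cells with Xist alone and 2.11 in cells with Y genes alone. No doublet caller was run on the gated cells. Without these barcodes 529 genes were higher and 1270 lower in transferred cells, against 513 and 1149 with them, and single ratios moved more than the counts. Among the counts, list medians and gene ratios recomputed without them, 71 moved, for a gene beyond its counting interval, and 88 did not. Transcripts of myeloid and other antigen-presenting cells moved furthest. On the scale of CPM + 1 the ratio of transferred over endogenous cells was 0.261 for Lyz2, 0.115 for Fcer1g, 0.0736 for Tyrobp, 0.0295 for H2-Aa and 0.174 for Ccr2 without these barcodes, against 1.06, 0.428, 0.278, 0.0951 and 0.304 as plain ratios with them. It was 0.0700 for Rsad2 and 0.245 for Hspa1a, against 0.261 and 0.38. For the chemokines Xcl1 and Ccl5 the ratios without them were 7.11 and 0.155, and for Dapl1 10.5. Results below are for all gated cells.

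**Figure D1:**
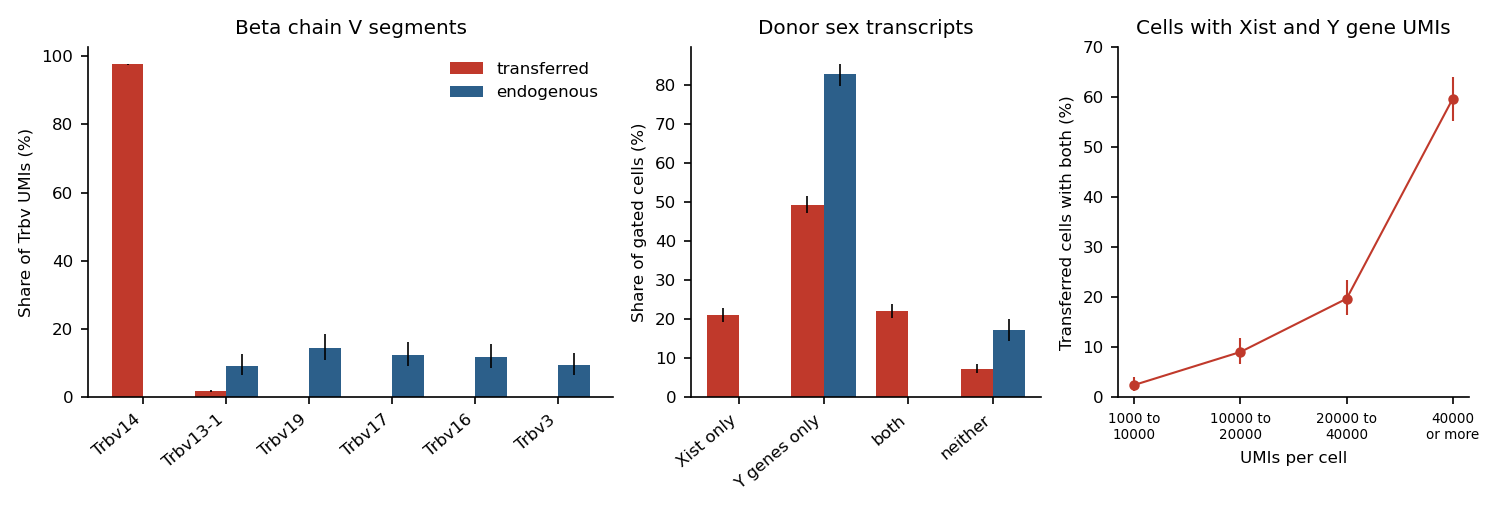
Left, share of Trbv UMIs (percent) by V segment in gated transferred and endogenous CD8 cells. Middle, share of cells (percent) with Xist alone, Y genes alone, both or neither in each library. Right, share of transferred cells with both marks (percent) by UMIs per cell, with exact 95% intervals. Trbv14 holds 97.5% of transferred Trbv UMIs, no endogenous cell has Xist, and barcodes with both marks reach 59.7% in the deepest range.

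Across the transcriptome more genes were lower than higher in transferred cells. UMIs were summed over the gated cells of each library and divided by the total, and a gene was called at a ratio of 1.5 in either direction, with 1 CPM added to both levels, among the 7889 genes at 10 CPM or more in either library. On this rule 513 genes (6.5%) were higher and 1149 (14.6%) lower in transferred cells, with a median log2 ratio of -0.08 over all genes. Log2 ratios use a pseudocount of 1 CPM, and the other ratios are plain ratios of CPM unless the CPM + 1 scale is named. RNA that B cells or myeloid cells hold at 2 times its endogenous CD8 level or more made up 15.2% of all genes tested, 40.2% of the genes lower and 12.7% of those higher in transferred cells. Without these genes 687 remained lower. Whether captured RNA of other cells contributed to these differences was not tested.

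The genes with the largest ratios included the chemokine gene Xcl1 and the memory-associated genes Dapl1, Id3 and Myb, and those with the smallest included 3 granzymes, 4 class II genes and 4 haemoglobins. The 15 largest ratios among genes at 50 CPM or more and in at least 5% of cells were those of Xist, Dapl1, Cd81, Xcl1, Id3, Rgcc, Trbc2, Tnfsf8, Hivep3, Trdc, Nrn1, Erdr1, Myb, Cd200 and Crtam. Of these 15, 14 were called under each of the 20 alternatives described in the closing section, the exception being Xist, which male-marked cells lack by construction. The 15 smallest were those of Gzmf, Gzmk, Hba-a1, Hba-a2, Hbb-bt, Gzmc, Havcr2, H2-Aa, H2-Ab1, H2-Eb1, Hbb-bs, Ifitm1, H2-DMb1, Ccl5 and Napsa. Of these 14 were called under each alternative and Ifitm1 was not. Erdr1, at 4.49-fold, also differed between donors: it was at 447 CPM in transferred cells with Xist alone and 171 CPM in those with Y genes alone, and 3.04-fold higher in male-marked transferred than in male-marked endogenous cells.

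**Figure D2:**
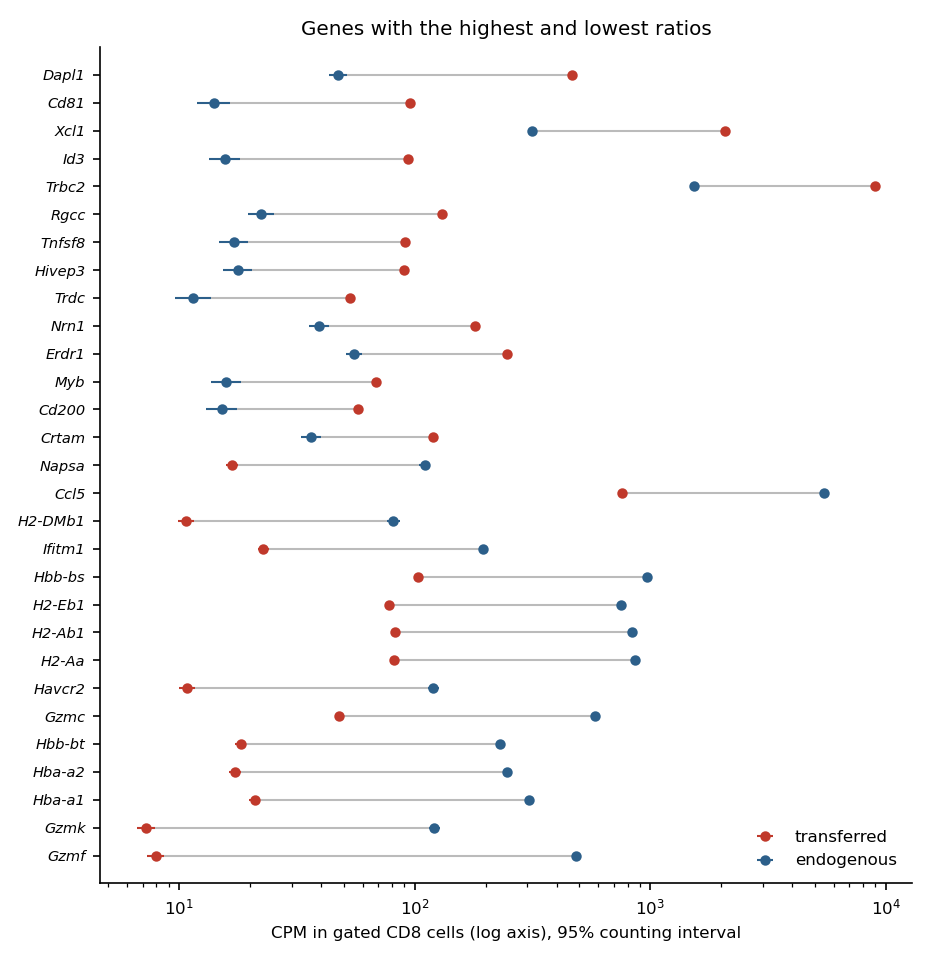
Level in CPM (log axis) of the 15 genes with the largest and the 15 with the smallest ratio, Xist left out, in gated transferred and endogenous CD8 cells. Horizontal lines are exact 95% counting intervals and do not include variation between animals. Dapl1 (464 and 47.2 CPM) and Xcl1 (2076 and 313 CPM) sit on the transferred side, Ccl5 (758 and 5467 CPM) and Gzmk (7.24 and 121 CPM) on the endogenous side.

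The chemokine genes Xcl1 and Ccl5 stood in opposite order in the 2 libraries. Xcl1 (chr1:164931644-164935527, minus strand, mm10), the ligand that draws cross-presenting dendritic cells bearing XCR1, was 6.62-fold higher in transferred cells (2076 and 313 CPM, 6.41 to 6.85). Ccl5 (chr11:83525778-83530518, minus strand), a chemokine of effector and memory T cells, was 7.21-fold lower (758 and 5467 CPM). After thinning, 57.7% of transferred and 10.8% of endogenous cells had an Xcl1 UMI (84% and 21.3% at full depth). At most 0.755% of the B cell and myeloid barcodes of the endogenous library had one, which gives no background for the transferred library. For Ccl5 the shares were 45.2% and 78.4% (77.8% and 89.9% at full depth), with 9.43% of B cell and 6.73% of myeloid barcodes. Cells with Xcl1 and no Ccl5 made up 36.1% of transferred and 4.29% of endogenous cells, and cells with Ccl5 and no Xcl1 23.6% and 71.9%. These classes depend on depth: at full depth they were 19.2% and 2.08%, and 13.0% and 70.6%, and UMIs of both chemokines were found in 64.8% of transferred and 19.3% of endogenous cells. The transferred shares include the barcodes with both sex marks, which no endogenous cell had. In endogenous cells Xcl1 was concentrated, with 5 cells holding 50% of its UMIs, and leaving out the 10 leading cells of each library raised the ratio to 18.3 on the CPM + 1 scale. Those 10 cells are a larger share of the 722 endogenous than of the 2094 transferred cells, so this setting takes more from the endogenous side.

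The gene lists used from here on can share members, such as Xcl1. Of 13 measured cytokine and chemokine genes, 7 were higher and 4 lower in transferred cells, with a median log2 ratio of 0.73 against -0.08 over all genes. The higher ones were Xcl1, Tnfsf8 (CD30 ligand, 90.4 and 17.1 CPM), Lta (lymphotoxin, 22.3 and 6.22 CPM), Csf2 (GM-CSF, 30.2 and 10.3 CPM), Il2 (17.5 and 7.64 CPM), Ccl1 (404 and 184 CPM) and Ifng. Ifng, the gene of interferon-gamma, was at 332 and 199 CPM, a ratio of 1.67 (1.6 to 1.74). Its shares of cells after thinning were close, 15.2% and 13.0% (39.2% and 37.1% at full depth), and 36 transferred and 13 endogenous cells held 50% of its UMIs. Ccl1 was still more concentrated, with 4 endogenous cells holding 50% of its UMIs, and its ratio without the 10 leading cells was 8.32, with the same limit as for Xcl1. Ccl3, a chemokine of inflammation, was 1.77-fold lower (354 and 626 CPM), but this direction turned in 5 of the 20 alternatives. Tnf (19 and 12.6 CPM) and Ccl4 (875 and 757 CPM) stood at plain ratios of 1.5 and 1.16, and Tnf fell short of the limit once 1 CPM was added.

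Genes of memory and stem-like T cells were more often higher than lower in transferred cells. Transferred cells had 8 of its 16 measured genes at higher and 2 at lower levels, and the median log2 ratio was 0.57. The largest beside Xcl1 were Id3 (93.4 and 15.6 CPM, 5.97-fold, 5.14 to 6.98), a regulator kept by memory precursors, Bach2 (53.8 and 16.3 CPM, 3.29-fold), a repressor of effector genes, and Slamf6 (115 and 42.1 CPM, 2.74-fold), a surface receptor of the progenitor pool. Ccr7, which guides cells to lymph nodes, was 2.33-fold higher (195 and 83.8 CPM), Foxp1 1.89-fold and Satb1 1.81-fold. Dapl1, a gene described in memory-like T cells (chr2:59484653-59505020, plus strand), was 9.84-fold higher (464 and 47.2 CPM, 9.03 to 10.7), with a UMI in 41.8% and 8.45% of thinned cells (68.1% and 13.4% at full depth). No B cell or myeloid barcode of the endogenous library had one after thinning, which gives no background for the transferred library. Myb, a transcription factor of the stem-like pool, was 4.32-fold higher (68.4 and 15.8 CPM), in 12.4% and 2.08% of thinned cells (53.2% and 12.6% at full depth).

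Tcf7, the gene of TCF1, was also called higher, but less clearly. Its ratio was 1.91 (165 and 86.3 CPM, 1.79 to 2.04), while 27.9% of transferred and 22.2% of endogenous thinned cells had a UMI, and its ratio in thinned cells was 1.15. At full depth, where UMIs per cell differ between the libraries, the gap was larger, 77.8% and 45.3%, and its cause was not tested. Lef1 (62.7 and 72.5 CPM) and Il7r (177 and 154 CPM), genes of central memory and naive cells, stayed within 1.5-fold, and 2 members were lower. Klf2 and S1pr1, the factor and the receptor that let T cells leave tissue, were 2.82-fold (69 and 195 CPM) and 2.43-fold lower (12.7 and 30.8 CPM). Klf2, Foxp1, Bach2, Slamf6, Ccr7 and Id3 were also abundant in B cell barcodes, at 1318, 819, 136, 155, 377 and 95 CPM. Without such genes 7 members were left, of which 2 were higher and none lower.

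Cells that carried Tcf7 together with a PD-1 transcript were more frequent among transferred cells. After thinning, 10.6% of transferred and 2.35% of endogenous cells had UMIs of both Tcf7 and Pdcd1 (61.6% and 13.2% at full depth). The B cell and myeloid barcodes of the endogenous library had 0%, which gives no background for the transferred library. Tcf7 without Gzmb was found in 24.7% and 20.8% (46.9% and 35.04% at full depth), Gzmb without Tcf7 in 17.0% and 33.1% (11.6% and 41.4%), and both in 3.21% and 1.39% (30.9% and 10.2%). These classes come from single UMIs and are ranges of detection, not cell types. They include the barcodes with both sex marks, which made up 22.2% of transferred cells and no endogenous cell. Shares without those barcodes are not given here.

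**Figure D3:**
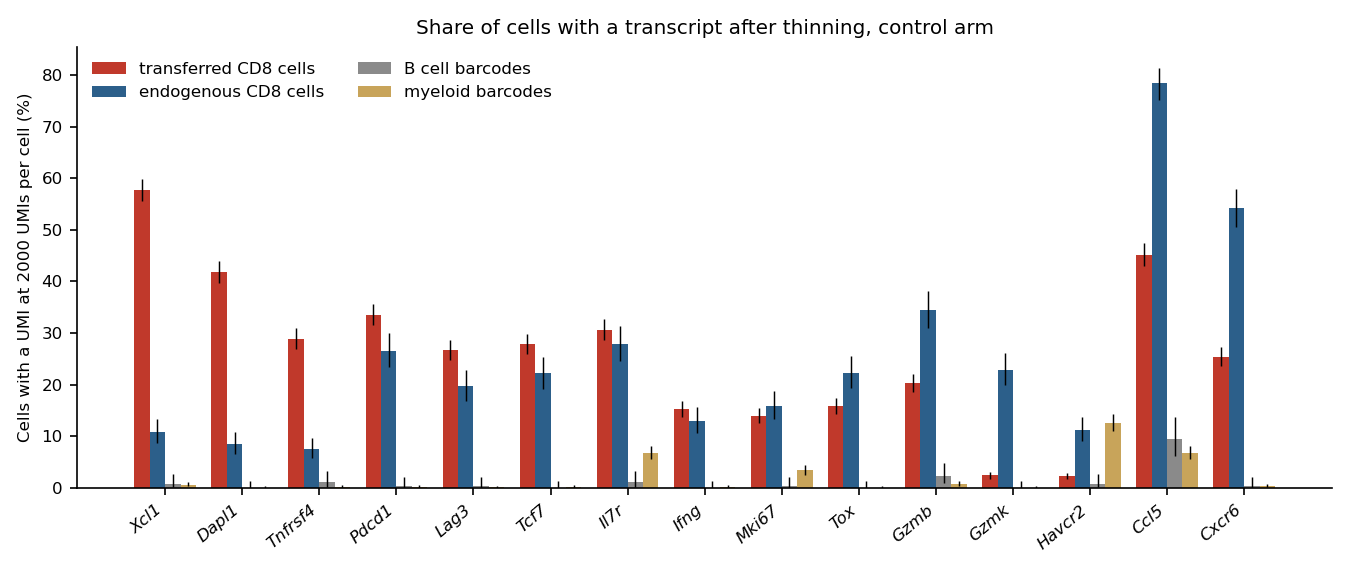
Share of cells (percent) with a UMI after thinning to 2000 UMIs for 15 genes in transferred and endogenous CD8 cells and in B cell and myeloid barcodes. These barcodes describe captured RNA in the endogenous library only and were chosen to have no CD3 UMI. Lines are exact 95% intervals. Xcl1 (57.7% and 10.8%) and Dapl1 (41.8% and 8.45%) are high in transferred cells, Ccl5 (45.2% and 78.4%) and Cxcr6 (25.4% and 54.2%) in endogenous cells, and Tcf7 (27.9% and 22.2%) is close in both.

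Cytotoxic genes were at lower levels in transferred cells. Of 16 measured members, 11 were lower and none higher, with a median log2 ratio of -1.22. Gzmb, the main granzyme of effector cells, was at 341 and 932 CPM, a ratio of 0.366 (0.358 to 0.375), and was found in 20.2% and 34.5% of thinned cells (42.5% and 51.7% at full depth). Prf1, perforin, was at 26.7 and 148 CPM (ratio 0.18, 0.169 to 0.193) and in 4.64% and 11.9% of thinned cells (31.1% and 37.1% at full depth). Gzmk, a granzyme of early effector memory cells (chr13:113171608-113225908, minus strand), was at 7.24 and 121 CPM (ratio 0.0597, 0.0538 to 0.0663) and in 2.39% and 22.9% of thinned cells (10.8% and 47.5% at full depth). Fasl, which kills through the death receptor Fas, was 2.62-fold lower (23.9 and 62.6 CPM), while Nkg7, a granule protein, was within 1.5-fold (1353 and 1808 CPM) and present in 88.6% and 86.3% of thinned cells (99.2% and 96.5% at full depth).

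The largest ratios of the list belonged to a cluster of granzyme genes on chromosome 14. Gzmd was at 0.939 CPM in transferred and 187 CPM in endogenous cells, Gzmf at 7.94 and 484 CPM, Gzme at 1.55 and 94.5 CPM, and Gzmc at 47.7 and 581 CPM. These values rested on few cells: 2 endogenous cells held 50% of the Gzmf and of the Gzmd UMIs, and 4 those of Gzmc and Gzme. Without the 10 leading cells of each library the ratios on the CPM + 1 scale were 0.144 for Gzmd, 0.0236 for Gzmf, 0.278 for Gzme and 0.115 for Gzmc, so each stayed lower in transferred cells. At 5000 to 30000 UMIs they were 0.566 for Gzmc and 0.269 for Gzmf. After thinning, Gzmc was found in 1.24% of transferred and 5.54% of endogenous cells and Gzmf in 0.383% and 3.74%, against 7.26% and 12.5% and 1.15% and 6.93% at full depth. The transcripts of these 4 genes share 68.6 to 90.04% of their bases, highest between Gzmd and Gzme, and the sources used here do not say how UMIs were split among them.

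The 250 bases upstream of these 4 genes are printed because the genes lie together and were lower together. They come from RefSeq on GRCm38.p6 and are given on the minus strand, the strand of the genes: Gzmc at chr14:56234658-56234907, Gzmd at chr14:56132594-56132843, Gzme at chr14:56120626-56120875 and Gzmf at chr14:56211408-56211657. Capitals mark each match of TGTGGT on either strand, the core motif of RUNX factors, which regulate cytotoxic genes.
Gzmc promoter: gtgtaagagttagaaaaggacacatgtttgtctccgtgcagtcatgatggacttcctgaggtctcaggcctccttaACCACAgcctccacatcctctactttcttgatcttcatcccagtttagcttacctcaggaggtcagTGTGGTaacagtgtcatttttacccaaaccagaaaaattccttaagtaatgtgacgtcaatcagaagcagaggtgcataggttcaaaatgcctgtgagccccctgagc
Gzmd promoter: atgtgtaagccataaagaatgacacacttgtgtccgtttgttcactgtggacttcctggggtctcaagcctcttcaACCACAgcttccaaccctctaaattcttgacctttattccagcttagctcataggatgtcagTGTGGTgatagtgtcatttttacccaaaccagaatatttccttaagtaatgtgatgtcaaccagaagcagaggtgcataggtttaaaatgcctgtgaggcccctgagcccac
Gzme promoter: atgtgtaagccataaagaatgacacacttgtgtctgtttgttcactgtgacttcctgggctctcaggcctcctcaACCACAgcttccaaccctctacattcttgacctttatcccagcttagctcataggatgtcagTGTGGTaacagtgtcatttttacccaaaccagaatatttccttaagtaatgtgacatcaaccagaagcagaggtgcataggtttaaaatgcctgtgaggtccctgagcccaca
Gzmf promoter: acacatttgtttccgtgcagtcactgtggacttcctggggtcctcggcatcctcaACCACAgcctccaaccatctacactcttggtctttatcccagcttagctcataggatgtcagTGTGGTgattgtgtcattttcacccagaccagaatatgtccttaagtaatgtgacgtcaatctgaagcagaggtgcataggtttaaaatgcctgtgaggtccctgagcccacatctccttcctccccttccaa

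Each promoter held 2 RUNX matches in the same arrangement, the upstream one reading ACCACA and the other TGTGGT. They start at positions -174 and -108 for Gzmc, -174 and -112 for Gzmd, -175 and -113 for Gzme, and -195 and -133 for Gzmf, counted from the annotated start. At least 1 match was present in 14.05% of 32851 promoters of this length. AGGTGT, a T-box motif, and TGANTCA, the AP-1 motif, had no match on either strand in these 4 windows, and 11.8% and 6.75% of promoters held them. The 4 promoters were 70.2 to 94.8% identical to each other. The matches describe the letters of these windows and say nothing of binding.

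Inhibitory receptors and exhaustion genes were split. Of the 15 measured, 3 were higher and 7 lower in transferred cells, with a median log2 ratio of -0.31. Havcr2, the gene of TIM-3 (chr11:46454935-46481255, plus strand), was 11.1-fold lower (10.8 and 119.8 CPM, ratio 0.0901, 0.0822 to 0.0986), in 2.2% and 11.2% of thinned cells (12.9% and 31.0% at full depth), but myeloid barcodes held it at 61.9 CPM and in 12.6% (44.0% at full depth). Cd244, the receptor 2B4, was 8.05-fold lower (5.11 and 41.1 CPM), Cd200r1 7.8-fold (4.75 and 37.1 CPM) and Entpd1, the ectoenzyme CD39 of terminally exhausted cells, 6.89-fold (5.78 and 39.8 CPM). Myeloid barcodes held these 3 at 80.5, 67.8 and 54.8 CPM, above their levels in endogenous CD8 cells. Eomes, a T-box factor of memory and exhausted cells, was 3.77-fold lower (11.3 and 42.5 CPM) and nearly absent from myeloid barcodes at 0.747 CPM.

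Receptors that mark recent or continued activation were level or higher. Pdcd1, the gene of PD-1, was at 236 and 248 CPM (ratio 0.955, 0.917 to 0.995) and in 33.5% and 26.6% of thinned cells (73.7% and 55.3% at full depth). Lag3 stood at 158 and 196 CPM (0.805) and Ctla4 at 54.6 and 48.2 CPM (1.13). The shares of cells with Lag3 lay the other way, 26.7% and 19.7% after thinning (79.3% and 49.9% at full depth). In thinned cells its log2 ratio was 0.31. Cd160 was 1.86-fold higher (190.3 and 102 CPM), and so were Nr4a1 (41.6 and 16.6 CPM, 2.5-fold) and Nr4a3 (72.3 and 30.7 CPM, 2.35-fold), nuclear receptors induced by receptor signals. Tox, a factor that maintains exhausted cells, was 1.65-fold lower (91.1 and 151 CPM, ratio 0.604, 0.573 to 0.638), in 15.8% and 22.3% of thinned cells (61.0% and 59.97% at full depth). PD-1 was thus level while TIM-3, 2B4 and CD39 transcripts were low in transferred cells. The call on Tox was not kept in every alternative, although its direction was.

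Genes of terminal effector differentiation were lower. Of 13 measured members, 11 were lower and none higher, with a median log2 ratio of -1.11. Klrg1, a receptor of terminal effectors, was 9.15-fold lower (1.12 and 10.2 CPM), Prdm1, the gene of Blimp-1, 7.89-fold (3.37 and 26.6 CPM), and Id2, a regulator that favours effector over memory cells, 4.43-fold (144 and 636 CPM, ratio 0.226, 0.219 to 0.233). Id2 was found in 25.7% and 52.8% of thinned cells (63.8% and 78.4% at full depth), and in 29.7% of myeloid barcodes (67.1%). Klre1 was 3.54-fold lower (24.8 and 88 CPM), Cx3cr1 2.03-fold (17.5 and 35.5 CPM) and Tbx21, the gene of T-bet, 1.57-fold (31.9 and 49.9 CPM), each with a call that was lost in some alternatives. The opposite order of Id3 and Id2 showed in the levels: the ratio was 5.97 for Id3 and 0.226 for Id2. Among 7 measured NK-type receptors 3 were lower, Klra7 with 8.45 and 24 CPM among them, while Klrk1, the activating receptor NKG2D, was 1.59-fold higher (378 and 239 CPM).

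Homing and residency genes were lower as well. Of 9 measured receptors for chemokines and sphingosine phosphate 7 were lower and 1, Ccr7, higher, with a median log2 ratio of -1.22. Cxcr6, a receptor of tumour-resident T cells, was 4.62-fold lower (118 and 545 CPM, ratio 0.216, 0.209 to 0.224), in 25.4% and 54.2% of thinned cells (64.6% and 77.0% at full depth), with 0.377% of B cell and 0.34% of myeloid barcodes. Ccr2, a receptor of inflammatory recruitment, was 3.29-fold lower (31.1 and 103 CPM) and Cxcr3, the receptor for interferon-induced chemokines, 2.02-fold (50.6 and 102 CPM). Ccr2 was at 939.8 CPM in myeloid barcodes and Cxcr3 at 2.44 CPM. Of 12 measured residency and adhesion genes 7 were lower and 1 higher: Itgae, the integrin CD103, was 5.22-fold lower (2.28 and 11.9 CPM), and Itgb1, a beta 1 integrin, 2.18-fold higher (602 and 276 CPM). The receptor that was higher in transferred cells, Ccr7, was thus the one of lymph node homing.

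**Figure D4:**
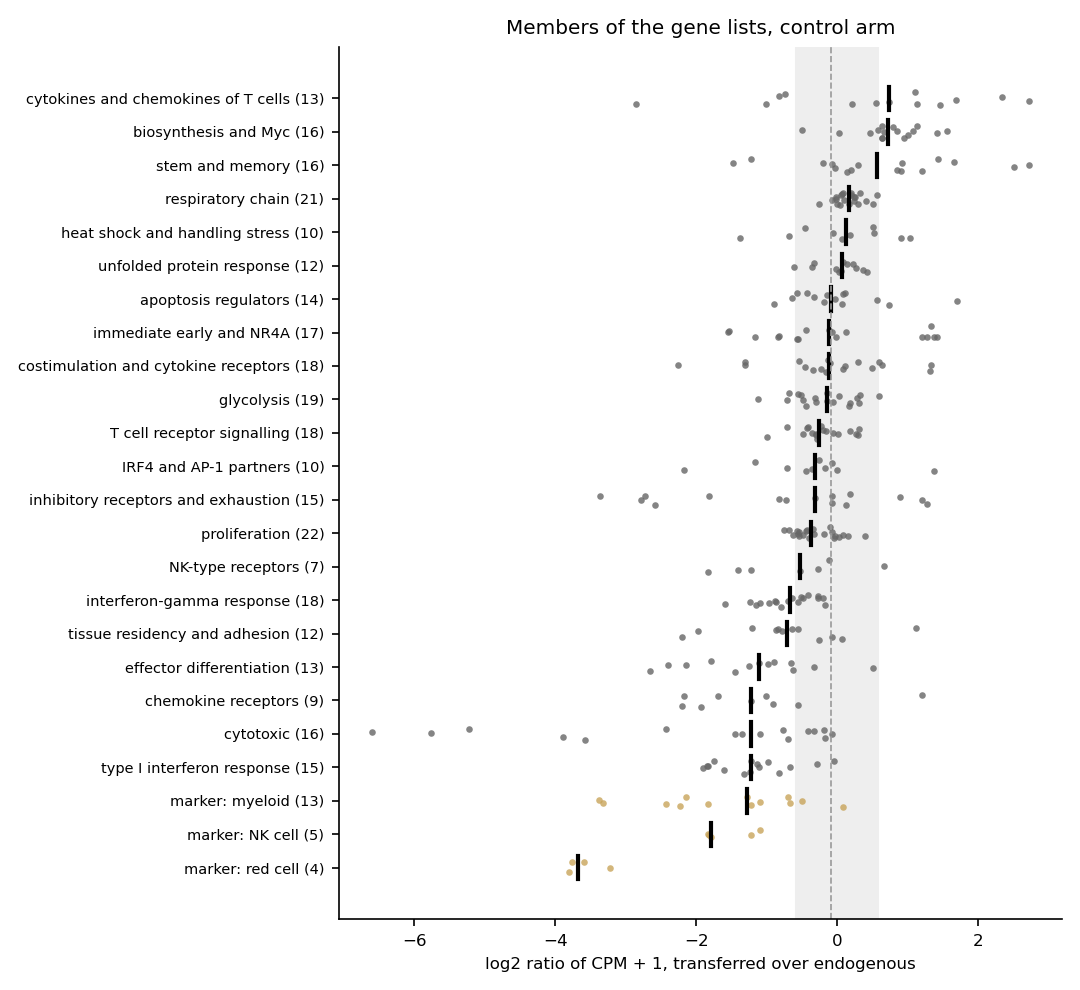
Log2 ratio of transferred over endogenous CD8 cells for each measured member of the gene lists and of the marker lists of other cells (tan). Black bars are list medians, the dashed line is the median of all genes (-0.08) and the grey band spans ratios within 1.5-fold. Cytotoxic, effector and interferon lists lie mostly below the band, and the biosynthesis and Myc list has 12 of 16 members above it.

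Of 18 measured costimulatory and cytokine receptors, 4 were higher and 3 lower, the lower share being near the 14.6% of all genes, and the median log2 ratio was -0.12. Il2ra, the high-affinity IL-2 receptor chain CD25, was 2.58-fold higher (54.4 and 21.1 CPM), and Tnfrsf4, the costimulatory receptor OX40, 2.51-fold (275 and 109 CPM), in 28.9% and 7.48% of thinned cells (66.4% and 23.5% at full depth). Tnfrsf18 (GITR, 241 and 155 CPM, 1.56-fold) and Il18r1 (156 and 104 CPM, 1.51-fold) lay close to the limit. Il10ra (11.3 and 57.9 CPM), Ifngr1 (183 and 453 CPM) and Il12rb1 (5.8 and 15.8 CPM), receptors for IL-10, interferon-gamma and IL-12, were 5.13-, 2.48- and 2.73-fold lower. Tnfrsf9, the receptor 4-1BB, was within the limit at 226 and 286 CPM.

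Few receptor signalling genes were called, with a share lower near that of all genes, while genes that receptor signals switch on split into sets. Of 18 signalling genes 2 were lower and none higher: Cd247, the zeta chain, at 56.5 and 113 CPM and the coreceptor Cd6 at 63.5 and 105 CPM. Over all genes tested 6.5% were higher and 14.6% lower. Of 17 measured immediate early genes 5 were higher and 5 lower. Higher were Myc (90.8 and 33.4 CPM, 2.72-fold), Egr2 (20.9 and 7.73 CPM, 2.7-fold), Nr4a1, Nr4a3 and Irf4, and among the lower ones were Fos (41.9 and 125 CPM), Fosb (30.8 and 91.2 CPM), Jun (170.2 and 383 CPM) and Egr1 (28.7 and 51.8 CPM). Those last 4 were all more abundant in B cell barcodes, at 562, 232, 1154 and 254 CPM, and the part of captured RNA in the difference was not tested. Of the 17 genes, 13 were held by B cell or myeloid barcodes at 2 times their endogenous CD8 level or more. Without these 13 the list median log2 ratio moved from -0.12 to 0.67. Irf4, the factor supplied in the other arm, was 2.76-fold higher in transferred cells without any IRF4 vector (26.3 and 9.51 CPM, 2.27 to 3.39), in 4.74% and 1.11% of thinned cells (32.6% and 9.7% at full depth). B cell barcodes, which express Irf4, had a share of 3.4% (7.92% at full depth) and myeloid ones 0.883% (5.45%). The endogenous share was thus near that of the myeloid barcodes after thinning and above it at full depth. Irf4 was the 1 member higher of 10 measured in the list of IRF4 and its AP-1 partners, in which 3 were lower. These counts stand beside the 6.5% higher and 14.6% lower of all genes.

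Ribosome biogenesis and Myc targets were higher in transferred cells, while cell cycle genes were not. Of 16 measured biosynthesis genes 12 were higher and none lower, with a median log2 ratio of 0.73 that stayed between 0.66 and 1.24 in the alternatives. Srm, spermidine synthase, was 2.98-fold higher (140.2 and 47.1 CPM), Npm1, a nucleolar protein, 2.2-fold (3141 and 1428 CPM) and Nolc1 2.13-fold (158 and 74.2 CPM), all in the direction of Myc itself. Slc3a2, an amino acid transporter chain, was within the limit (115 and 163 CPM). Mki67, the proliferation antigen Ki-67, was at 192 and 279.9 CPM (ratio 0.686) and in 13.9% and 15.9% of thinned cells, an order that turned at full depth (37.8% and 29.5%). Of 22 proliferation genes 3 were lower, Ube2c (129 and 219 CPM), Cenpf (74.7 and 121 CPM) and Cenpe (61.3 and 95.2 CPM), and none was higher, but the number lower ran from 0 to 15 among the alternatives, with 15 at 5000 to 30000 UMIs. The share lower was near the 14.6% of all genes. The alternative of cells without a UMI of this list after thinning is selected on these same genes. Of 21 respiratory chain genes none was called in either direction, with a median log2 ratio of 0.17, and of 19 glycolytic genes 1 was higher (the lactate transporter Slc16a1, 29.8 and 19.5 CPM) and 3 lower, including the glucose transporter Slc2a1 (38.2 and 84.7 CPM). The shares of glycolytic genes called were also near the 6.5% higher and 14.6% lower of all genes.

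The comparison was repeated within a stratum of cells that had no UMI of the proliferation list after thinning, 200 transferred and 85 endogenous, and in one with at least 2, 1494 and 480. Ccl5 was lower in both, at 1363 and 6387 CPM in the first and 651 and 5199.8 CPM in the second, and Xcl1 was higher in both, with ratios of 21.3 and 5.1 on the CPM + 1 scale. Ifng was 5.16-fold higher among cells without proliferation UMIs and Ccl1 47.2-fold (647 and 12.7 CPM), on the same scale. The endogenous side of that stratum rests on 85 cells with 942872 UMIs in all. In cells with at least 2 such UMIs the plain ratios were 1.29 for Ifng and 2.11 for Ccl1. Pdcd1, level over all cells, stood at 1.52 in the first stratum and at a plain ratio of 0.831 in the second. The strata are ranges of a score from thinned counts and not cell types.

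Interferon-response genes were lower in transferred cells. Of 15 measured type I response genes 13 were lower and none higher, with a median log2 ratio of -1.22. Ifit1 (8.58 and 34.8 CPM), Rsad2 (12.2 and 46.6 CPM), Rtp4 (12.1 and 45.6 CPM) and Ifit3 (9.89 and 35.5 CPM), antiviral effectors, were 4.06-, 3.83-, 3.77- and 3.59-fold lower. Rsad2 rested on 7 transferred and 2 endogenous cells that held 50% of its UMIs and turned direction without the 10 leading cells. That setting removes a larger share of the endogenous than of the transferred cells. Of 18 interferon-gamma response genes 10 were lower and none higher, with a median of -0.67: the guanylate-binding proteins Gbp7 (44.1 and 135 CPM), Gbp3 (17.1 and 41.8 CPM) and Gbp2 (32.9 and 74.6 CPM) led, and the class I gene H2-D1 stood at 1530.2 and 2385 CPM. Ifit1, Rsad2, Rtp4 and Gbp2 were at 42, 76.1, 121 and 309 CPM in myeloid barcodes. Among the 8 type I genes that were not abundant in B cell or myeloid barcodes 7 were lower.

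Of 14 apoptosis regulators and 10 heat shock genes, 2 of each list were higher and 2 lower. Over all genes tested 6.5% were higher and 14.6% lower, and the share of apoptosis regulators lower was near that value. Fas, the death receptor, was 3.44-fold higher (43.7 and 12.7 CPM) and Bbc3, the gene of the death-promoting PUMA, 1.72-fold (21.4 and 12.4 CPM). The chaperonin genes Hspd1 (633 and 307 CPM) and Hspe1 (834 and 447 CPM) were 2.06- and 1.87-fold higher and the inducible heat shock genes Hspa1a (61.7 and 162 CPM) and Hspa1b (58.1 and 93.9 CPM) 2.63- and 1.62-fold lower. Among 12 genes of the unfolded protein response 1 was lower and none higher.

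Transcripts of other cell types differed between the gated populations. Of 13 measured myeloid markers 11 were lower in transferred cells, with a summed level of 1427 and 5841 CPM, although Lyz2, the gene used in the gate, was at 127 and 119 CPM. The Lyz2 level of the transferred library was carried by barcodes with both sex marks (226 CPM), since those with Xist alone and Y genes alone were at 28.8 and 30.7 CPM, against 121 CPM in male-marked endogenous cells. For H2-Aa the barcodes with both marks were at 141 CPM, those with 1 mark at 13.5 and 28.7 CPM, and male-marked endogenous cells at 938 CPM. The class II genes H2-Aa, H2-Ab1 and H2-Eb1 were at 81.9, 82.6 and 77.6 CPM in transferred and 861, 836 and 752 CPM in endogenous cells, and 14 endogenous cells held 50% of the UMIs of each. They were at 4773, 3819 and 4169 CPM in B cell barcodes. Of 8 NK markers 5 were measured, each of them lower (289 and 790 CPM summed), and Ncr1, Klrb1c and Klra8, which define NK cells, were under 10 CPM in both libraries. Haemoglobin levels rested on a few barcodes: 1 transferred and 1 or 2 endogenous cells held 50% of the UMIs of Hbb-bs (103 and 969 CPM), Hbb-bt, Hba-a1 and Hba-a2. Hbb-bs was found in 5.65% and 10.1% of thinned cells (39.3% and 41.0% at full depth), and without the 10 leading cells its ratio was 0.539 on the CPM + 1 scale. No melanoma marker was measured. Among B cell markers Ighd was at 11.3 and 1.16 CPM, Ighm at 156 and 97 CPM and Igkc at 4.53 and 20.4 CPM, so that these 3 did not share 1 direction. Without cells holding any Lyz2 UMI, 816 genes were higher, and the part of other cells' RNA in the results was not tested.

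Over all genes tested, few differed by sex mark among the transferred cells, but several of the ranked genes did. Of 7316 genes tested between female-marked and male-marked transferred cells, 16 were higher and 45 lower at a ratio of 1.5, or 0.834%, against 21.1% called between transferred and endogenous cells. Between male-marked cells of both libraries 511 genes were higher and 1314 lower of 7892 (23.1%), and of the 1662 genes called over all cells 1542 were called in the same direction and 2 in the opposite one. Of the 29 ranked genes other than Xist, 17 lay within 1.5-fold between female-marked and male-marked transferred cells. The ratios of female-marked over male-marked cells ran from 0.148 for Hba-a1 to 2.61 for Erdr1, with a median of 0.942. H2-Aa was at 13.5 and 28.7 CPM and Gzmc at 34.1 and 59.2 CPM. Xcl1 was at 2246 CPM in female-marked and 2263 CPM in male-marked transferred cells, Ccl5 at 729 and 737 CPM and Dapl1 at 468 and 526 CPM. In male-marked endogenous cells these 3 were at 327, 5128 and 42.2 CPM. Trbc2 and Trbv14 themselves differed between the marked transferred cells, at 11973 and 7726 CPM and at 348 and 203 CPM.

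The same contrast in the arm given IRF4-transduced cells used 494 transferred and 2007 endogenous gated cells and shares no library with the control arm. Of 7584 genes tested there, 433 (5.71%) were higher and 733 (9.67%) lower in transferred cells, with a median log2 ratio of -0.07. Both arms called 230 genes higher, which is 44.8% of those in the control arm and 53.1% of those in the IRF4 arm, and 497 lower (43.3% and 67.8%). Of the control arm genes, 469 of the 513 higher and 923 of the 1149 lower were tested in the IRF4 arm. Genes not tested there thus lower the control arm percentages. Of the genes lower in the control arm 25 were called higher in the IRF4 arm, and 1 of those higher, Il2, was called lower. Among the 15 largest ratios of the control arm 14 were also called higher in the IRF4 arm, and Myb, at 39.2 and 36.3 CPM there, was not. Among the 15 smallest, 11 were tested there and 10 called lower, Napsa being the exception, while the 4 haemoglobin genes were not abundant enough. Differences between the arms were not tested.

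Most named genes kept their side in both arms, with several that did not. Xcl1 was at 1084 and 154 CPM in the IRF4 arm (ratio 7.04), Dapl1 at 333 and 38.9 CPM (8.57), Ccl5 at 1674 and 4491 CPM (0.373) and Gzmk at 22.8 and 398 CPM (0.0573). Havcr2 had a ratio of 0.37 there against 0.0901 in the control arm, and Gzmb 0.704 against 0.366. Lag3 was 2.25-fold higher in IRF4-transduced cells over endogenous ones (361 and 160.3 CPM) and within 1.5-fold in the control arm, whereas Slamf6 was level there (68.1 and 61 CPM). Lef1, level in the control arm, had a ratio of 0.342 in the IRF4 arm, and Eomes 0.0347. Irf4 itself read 27.9 and 10.5 CPM there, a ratio of 2.66, next to 2.76 in the control arm, so the 3' counts of Irf4 did not separate the IRF4-transduced from the GFP-transduced cells. The sources used here do not say whether these counts can include the vector transcript.

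**Figure D5:**
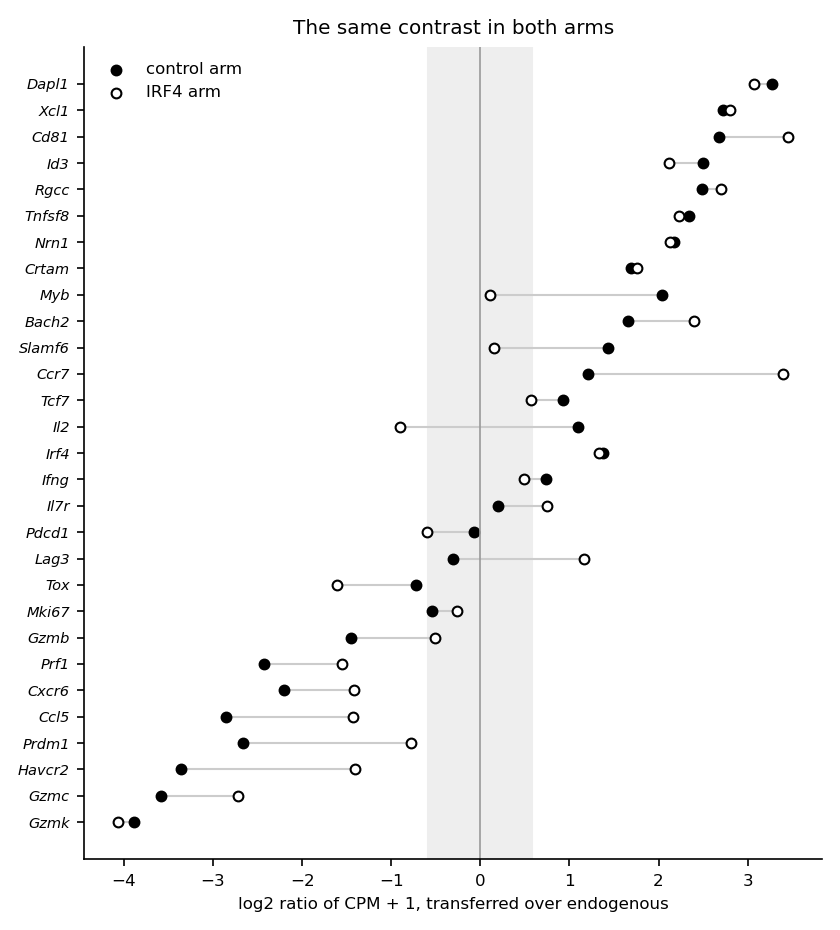
Log2 ratio of transferred over endogenous CD8 cells for 29 named genes in the control arm (filled) and in the arm given IRF4-transduced cells (open). The grey band spans ratios within 1.5-fold. Xcl1 and Dapl1 lie far above the band in both arms, Gzmk far below it in both, and Myb inside it in the IRF4 arm.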

How the data were processed

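Single-cell 3' RNA libraries from B16-F10 tumours were analysed, of sorted Pmel-1 cells and of the hosts' CD45+ cells, 1 library for each origin and arm. The files deposited by the authors hold raw UMI counts, whole numbers for each barcode and each of 28692 features, of which some share a symbol (58 symbols). The submitters' processing notes name Cell Ranger 3.0.2, STAR 2.6 and the build mm10, and the sources used here do not name the gene annotation. Per the labels' protocols the kit was a 10x Genomics 3' kit, and the text speaks of nuclei although cells were sorted, so barcodes were treated as cells.

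Cells were gated as given above, with no clustering and no doublet caller, and the gate itself leaves out barcodes with Cd4, Cd79a or high Lyz2. UMIs were summed per library, scaled to CPM over all gated UMIs and compared as ratios, called at 1.5 among genes at 10 CPM or more in either library. Levels have exact Poisson, ratios exact conditional binomial and shares exact Clopper-Pearson 95% intervals, which cover counting error only. A count of 0 was given a limit of 3 counts. The B cell gate asked for at least 2 Cd79a UMIs and no CD3 or Lyz2 UMI, and the myeloid gate for at least 20 Lyz2 UMIs per 10000 and no CD3 or Cd79a UMI. Ratios were checked on simulated counts.

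Genes named were a fixed set of 10, the 15 largest and 15 smallest ratios among genes at 50 CPM and 20 UMIs or more in at least 5% of cells of the higher library (without gate, ribosomal, mitochondrial, predicted and receptor segment genes), up to 4 members of each list with the largest ratios in each direction, leading V segments and markers. Other genes named within a list, and the donor and promoter values, were chosen after their values were seen. The members, the gene lists and the comparisons were chosen with earlier results of these data known. In all 20 alternatives were run, 15 planned and 5 added after seeing the data (donor sex marks in 3, Trbv14 and captured RNA). Tools were Python 3.11.15, numpy 2.4.6, scipy 1.17.1, pandas 2.3.3, matplotlib 3.10.9 and Biopython 1.88. Promoter sequences are from RefSeq and the Trbv14 exon from GENCODE vM21. A few members of the lists are counted but not reported by name here.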

Additional observations from a re-analysis of the deposited data

Results flagged for a closer look

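Il2, the gene of interleukin-2, had opposite directions in the arms. Its log2 ratio of transferred over endogenous cells was 1.10 in the control arm (17.5 and 7.64 CPM) and -0.90 in the arm given IRF4-transduced cells (5.36 and 10.8 CPM). Each value comes from 1 library a side, 12 transferred cells held 50% of the Il2 UMIs in the control arm, and the difference between the arms was not tested.

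The receptor transcript of the transferred cells also appeared outside the CD8 gate. Among transferred barcodes that passed the quality limits but not the gate, 294 of 419 (70.2%, exact 95% interval 65.5 to 74.5%) had a Trbv14 UMI, and 7 of 4954 (0.141%) such endogenous barcodes. The endogenous library holds almost no Trbv14 RNA in its gated cells either (4 of 722), so its value is no control for captured Trbv14 RNA in the transferred library. Of the 419, 281 had too many Lyz2 UMIs, 221 of them for no other reason, 162 had too few CD8 UMIs, 71 had no CD3 UMI, 30 had a Cd4 UMI and 25 a Cd79a UMI. These barcodes are not part of any comparison above.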

How the results depend on the processing

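With 1 library per origin there was no replicate to leave out and no spread between animals is known. No paired analysis was possible because the labels give no replicate numbers and each group has 1 library. Depth limits low genes, since 1 UMI is a larger share of an endogenous than of a transferred cell.

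The number of genes higher in transferred cells, 513, became 852 in cells thinned to 2000 UMIs, 223 at a filter of 50 CPM, 906 with no filter, 1108 in cells without proliferation UMIs, 816 in cells without a Lyz2 UMI and 827 without the 10 leading cells of each gene. The number lower, 1149, became 429 at 50 CPM, 2069 with no filter, 681 without the 10 leading cells and 687 without genes abundant in B cell or myeloid barcodes. Filters change these counts by the number of genes tested, and for the others the cause was not tested. Leaving out the 10 leading cells takes a larger share of the endogenous than of the transferred cells, for every gene. Scaling to the median ratio moved all log2 ratios by 0.07 and gave 646 and 971.

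Of 136 named genes 121 were called, and 94 of these in each of the 20 alternatives. The other 27 lost the call in at least 1, and 20 of these kept their direction in each. The 27 were Xist (absent from male-marked cells by construction), Ifitm1, Tox, Tcf7, Ifng, Foxp1, Satb1, Il2, Ccl3, Klre1, Tbx21, Cx3cr1, Klrk1, Klra7, Tnfrsf18, Il18r1, Cd6, Ube2c, Cenpf, Cenpe, Slc2a1, Slc16a1, Rsad2, H2-D1, Hspa1b, Ighm and Cd8b1. Called log2 ratios that turned were those of Ccl3, to 0.090 with cells weighted equally, 0.11 thinned, 0.60 without proliferation UMIs, 0.034 at 5000 to 30000 UMIs and 0.19 without a Lyz2 UMI, of Ube2c, Cenpf and Cenpe, to 1.21, 0.92 and 0.59 without proliferation UMIs, of Ifitm1 and Cenpf, to 1.49 and 0.068 without a Lyz2 UMI, and of Rsad2, to 0.25 without the 10 leading cells. Ube2c, Cenpf and Cenpe belong to the proliferation list, so cells without proliferation UMIs are selected on them and cannot show their direction. The median of 15 of the 21 gene lists kept its sign in each alternative.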
